A study of Mus musculus with 6 samples.

Results

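The genes described here are those of MHC class I and class II antigen presentation. They were chosen by name, as mouse genes whose symbol starts with H2-K, H2-D, H2-L, H2-Q, H2-T, H2-M, H2-O, H2-A or H2-E, together with 16 genes of the same pathways, from B2m and Tap1 to Ciita and Cd74. The RefSeq annotation holds 63 such genes, and 55 of them, out of 23462 genes measured, had a probe on the array. Class I accounted for 40 of the 55 genes with 58 probes and class II for 14 genes with 22 probes. The remaining gene, H2-Ke6, matched the name pattern but encodes a dehydrogenase next to the H2-K genes, and it was kept apart.

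MHC class I molecules are heavy chains paired with beta-2 microglobulin (B2m) that show peptides from the inside of the cell to CD8+ T cells. Peptides cut by the proteasome are pumped into the endoplasmic reticulum by Tap1 and Tap2 and loaded with the help of tapasin (Tapbp), calreticulin (Calr), calnexin (Canx) and Pdia3. MHC class II molecules pair an alpha and a beta chain around the invariant chain Cd74, exchange it for endosomal peptides under the action of H2-DM and H2-DO, and present them to CD4+ T cells. Microglia, the resident macrophages of the brain, carry little class II at rest and gain it on activation.

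RNA was measured in BV2 cells treated with LPS, 3 samples without and 3 with PGC-1α overexpression, and the comparison asks how the added coactivator changed expression in stimulated microglia. BV2 is an immortalized mouse microglial line, LPS is a component of bacterial membranes, and PGC-1α is a transcriptional coactivator known for its role in mitochondrial biogenesis. According to the culture methods, LPS was given at 500 ng/ml for 6 h, and lentivirus carried either the PGC-1α coding sequence or a negative control before puromycin selection. The vector drives its insert from a ubiquitin promoter and also carries EGFP, and neither the labels nor the methods say whether the samples came from separate cultures, so p-values measure the spread between these samples.

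Each sample was hybridized to 1 Agilent array, with replicates 1 and 2 of both groups on 1 slide and replicate 3 of both on another. The scanner files gave the intensity of 59305 spots other than controls, of which 41122 to 45165 were well above background. All values below are log2 intensities relative to the 75th percentile of their own array, which was 1617 to 1893 for control cells and 856 to 1268 with overexpression. Arrays of the same group correlated with Pearson's r of 0.987 to 0.995 across probes. The 2 probes of Ppargc1a, the gene of PGC-1α, were well above background on 1 or 2 arrays of each group, with -6.76 ± 0.82 and -5.62 ± 0.32 (SD, n = 3) for the first, so the overexpression is taken from the labels. In whole cultures, fewer cells expressing a gene and less RNA per cell cannot be told apart.

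Of the 63 genes, 8 had no probe and 13 had a probe that was not tested. Among these 13, the probes of H2-M1, H2-M9, H2-M10.1, H2-M10.3, H2-M10.4, H2-M10.6, H2-T18, H2-Eb2 and H2-DMb2 were not well above background on all 3 arrays of either group. The other 4, B2m, H2-D1, H2-T23 and Calr, gave strong signals on every array. The scanner software had marked their spots as outliers so often that fewer than 2 values were left in a group. The 42 genes that could be tested were compared with limma, with Benjamini-Hochberg adjustment over all 17062 genes of the array that passed the same filter. A gene that met it only through the group where it was high had to differ, as for H2-Q1 and H2-M10.5 below.

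Class I genes were mostly higher with PGC-1α overexpression under this scaling. Of 29 class I genes tested, 18 rose, 3 fell and 8 did not pass an adjusted p of 0.05, with a median log2 fold change of 0.55. Of the 3 that fell, H2-Q1 and H2-M10.5 entered the test through the control arrays alone. Across all genes 56.5% passed, 36.9% higher and 19.6% lower, and the median was 0.23. Class II genes went both ways. Of 12 tested, 4 rose, 3 fell and 5 did not pass, with a median of 0.31. Among genes with a value on every array, the 3 overexpression values lay above all 3 control values in 15 of 24 class I genes and below them in 3, and above in 4 and below in 4 of 12 class II genes. Over all genes these shares were 42.6% above and 22.9% below.

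The class I count depended on how the arrays were brought to one scale. After quantile normalization, which gives all arrays the same distribution of values, 7 class I genes rose and 4 fell, with a median of 0.05, while 21.7% of all genes rose and 20.9% fell around a median of 0.03. In class II, 2 genes rose and 1 fell. Members past the threshold thus divided into those past it under both scalings and those past it relative to the 75th percentile alone. Cd1d1 passed only after quantile normalization, and the rest passed under neither.

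**Figure D1:**
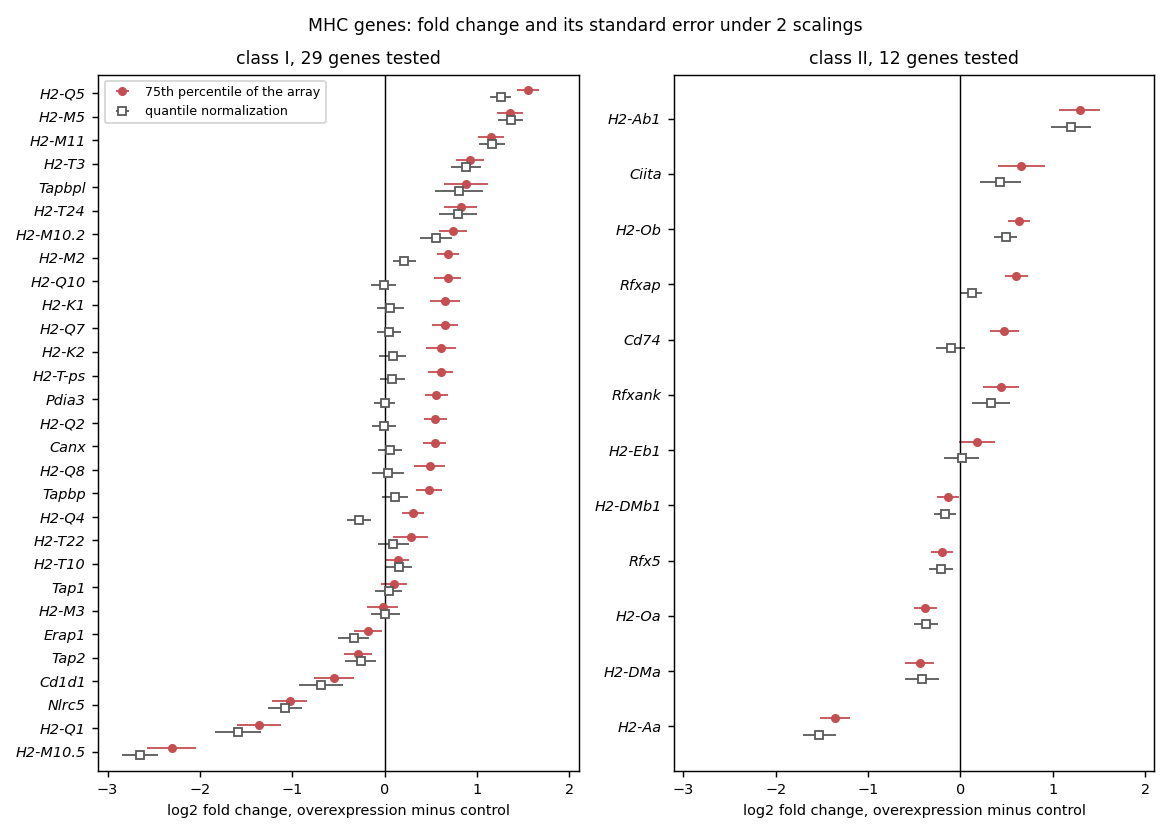
Log2 fold change of each tested gene, overexpression minus control, with its standard error from limma (n = 3 arrays a group at most), for 29 class I and 12 class II genes. Filled circles are scaled to the 75th percentile of each array and open squares are quantile normalized. The symbols lie together for H2-M5 (1.36 and 1.36) and H2-M11 (1.15 and 1.16), while those of H2-K1 (0.66 and 0.06) and Cd74 (0.47 and -0.10) separate.

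The classical heavy chain H2-K1, whose product presents peptides to CD8+ T cells, rose relative to the 75th percentile alone. It was 4.16, 4.14 and 4.48 in control cells and 4.84 and 4.996 with overexpression, the third spot there being marked as an outlier. All overexpression values were above all control values, with a log2 fold change of 0.66 ± 0.17 (standard error, limma adjusted p = 0.0134). After quantile normalization it was 0.06 (adjusted p = 0.757), and without overexpression replicate 2 it was 0.58 (adjusted p = 0.0564). A second H2-K1 probe changed by 0.32 and did not pass (adjusted p = 0.0836 when every probe was tested on its own).

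The light chain and the other heavy chain behaved alike once the marked spots were kept, an alternative chosen after seeing the data, in which 37% of all genes rose. B2m was then 3.77, 4.10 and 4.20 in control cells and 4.40, 4.76 and 4.77 with overexpression. H2-D1 was 4.48, 4.32 and 4.37 against 4.79, 5.42 and 5.05, and H2-T23, the mouse Qa-1 molecule, was 4.33, 4.004 and 4.59 against 5.15, 5.14 and 5.09. In all 3 genes the groups did not overlap. The log2 fold changes were 0.62 for B2m (adjusted p = 0.0145 from limma), 0.70 for H2-D1 (adjusted p = 0.0101) and 0.82 for H2-T23 (adjusted p = 0.0043). With quantile normalization of the same values they were 0.02, 0.07 and 0.20, none passed, and 22.8% of all genes rose.

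A further 9 class I genes rose under the 75th percentile and not after quantile normalization. They were H2-K2, a pseudogene beside H2-K1, the heavy chain genes H2-Q2, H2-Q7, H2-Q8, H2-Q10, H2-M2 and H2-T-ps, and the chaperones Canx and Pdia3, with log2 fold changes from 0.49 (H2-Q8, adjusted p = 0.043) to 0.69 (H2-M2, adjusted p = 0.00254). After quantile normalization all 9 lay between -0.01 and 0.21. With every probe tested on its own by limma, a second Canx probe changed by 0.21 (adjusted p = 0.24) and a second H2-T-ps probe by 0.09 (adjusted p = 0.862). H2-Q10 probes at 0.40 (adjusted p = 0.0592) and 0.28 (adjusted p = 0.0968) did not pass, while another at 1.18 did. The further tested probes of H2-Q7 and Pdia3 passed as higher. H2-Q8 passed in 6 of 19 alternatives and lost its call when any single array other than overexpression replicate 3 was left out, with adjusted p from 0.0537 to 0.202. H2-K2 lost it without control replicate 2 (0.66, adjusted p = 0.0539) and without control replicate 3 (0.56, adjusted p = 0.0763). H2-Q4 went from 0.30 (adjusted p = 0.0598) to -0.28 (adjusted p = 0.11) and passed under neither.

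Signal strength moved with this result. Of the 29 class I genes tested, 12 belonged to the brightest 10% of all genes tested, and 11 of these 12 rose. Within these 10%, 71.2% of 1707 genes rose and 0.176% fell, with a median log2 fold change of 0.52. After quantile normalization 4.1% of them rose, their median was 0.01, and 0 of the 12 class I genes passed as higher. In the sixth of 10 equal groups by brightness, counted from the dimmest, the median was -0.13 and 20.4% rose under the 75th percentile. Dim genes shifted as well. In the second group, which held H2-M10.2, the median was 0.53, 49.2% rose and 16.6% fell. After quantile normalization 33.6% of that group rose and 19.1% fell. In the third group, which held H2-Ab1 and H2-Ob, 43.9% rose and 21.7% fell, and 34.6% and 23.7% after quantile normalization. Whether the brightest genes as a group were higher in these cells cannot be told apart from a difference between arrays, since each array was dimmer in the overexpression group.

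**Figure D2:**
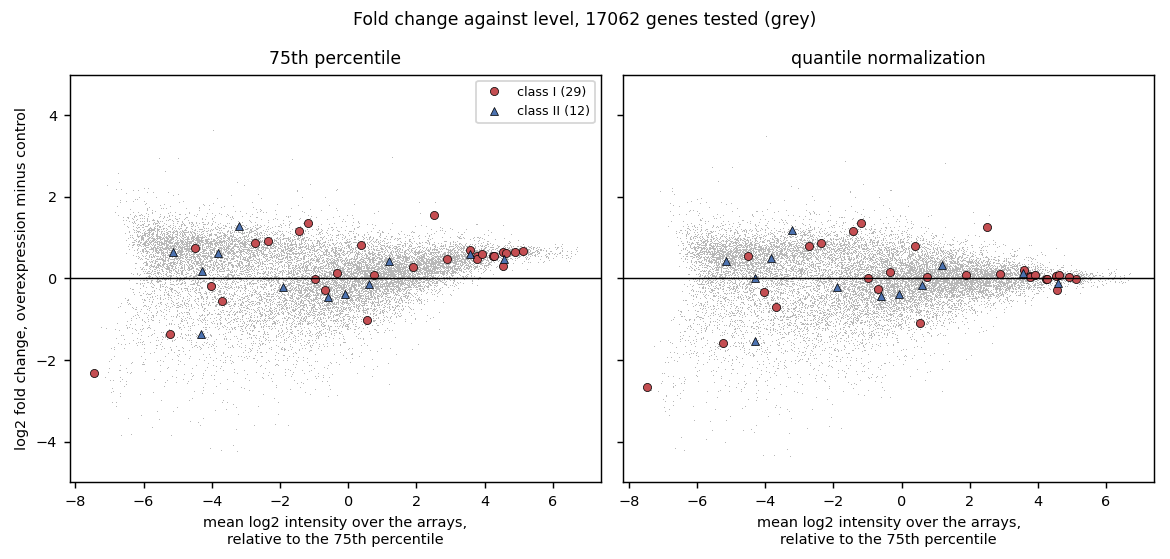
Log2 fold change against mean log2 intensity for all 17062 genes tested (grey) and for the class I (circles) and class II (triangles) genes, scaled to the 75th percentile (left) or quantile normalized (right). At the bright end the grey cloud lies near 0.52 on the left and near 0.01 on the right, and 12 class I genes lie within the brightest 10%.

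Several nonclassical class I genes, whose products have restricted expression and often do not present classical peptides, rose under both scalings. H2-Q5, annotated as a pseudogene with a transcript, was 1.75, 1.69 and 1.79 in control cells and 3.30, 3.38 and 3.20 with overexpression. The groups were far apart, 2.93-fold (log2 fold change 1.55 ± 0.12, standard error, limma adjusted p = 8.03e-05) and 2.39-fold after quantile normalization. H2-M5 was -2.02, -1.77 and -1.80 against -0.59, -0.33 and -0.61, a 2.56-fold rise that quantile normalization left at 2.57-fold. H2-M11 was -2.14, -1.89 and -2.00 against -0.94, -0.65 and -0.98, a 2.23-fold rise (2.24-fold after quantile normalization). These 3 genes passed in each of the 21 alternatives run.

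H2-T3, which encodes the thymus leukemia antigen, a ligand of CD8 alpha homodimers, was -2.91, -2.69 and -2.85 in control cells and -1.98, -1.63 and -2.08 with overexpression. Its rise of 0.92 on the log2 scale (standard error 0.15, adjusted p = 0.00218 from limma) was 0.88 after quantile normalization. H2-T24 was 0.18, 0.08 and -0.33 against 1.01, 0.83 and 0.55, and rose by 0.82 (0.79 after quantile normalization), although its second probe changed by 0.22 and did not pass (adjusted p = 0.272). Both genes passed in all 21 alternatives. H2-M10.2, of a family known from sensory neurons of the vomeronasal organ, was -4.67, -5.11 and -4.84 against -4.05, -4.06 and -4.29 and rose by 0.74 (adjusted p = 0.00498 from limma), passing in 20 of 21 alternatives.

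A pair of other heavy chain genes had lower values with overexpression. H2-Q1 was -4.82, -4.33 and -4.47 in control cells and -5.53, -6.41 and -5.78 with overexpression, where 2 of 3 spots were well above background. The values did not overlap (log2 fold change -1.36, adjusted p = 0.00257 from limma). With normexp background correction the difference was -0.13 (adjusted p = 0.442), and since H2-Q1 entered the test through its higher group, its p-value lends no support of its own. H2-M10.5 was -6.81, -5.92 and -6.18 on the control arrays, all well above background, and -9.05, -8.45 and -8.34 on the overexpression arrays, none of them well above it. It passed (adjusted p = 0.000483 from limma), but it too entered through the control arrays alone, and with normexp the difference was 0.0812 (adjusted p = 0.658). No fold is given because the control signal was no higher than the weakest signal counted as above background.

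Most of these genes lie in the MHC on chromosome 17. In the RefSeq order of the Q genes H2-Q1 fell, H2-Q2 rose under the 75th percentile alone, H2-Q4 did not pass, H2-Q5 rose under both scalings, and H2-Q7 and H2-Q10 rose under the 75th percentile alone. In the T run that follows, H2-T24 and H2-T3 rose under both scalings, H2-T-ps under the 75th percentile alone, and H2-T22 and H2-T10 did not pass. The M genes at the other end held H2-M10.2, H2-M11 and H2-M5, which rose under both scalings, H2-M10.5, which was lower under the limits given above, H2-M2, which rose under the 75th percentile alone, and H2-M3, which presents formylated bacterial peptides. H2-M3 was -0.96, -1.29 and -0.67 against -0.92, -1.12 and -0.95, and its groups overlapped (log2 fold change -0.02, adjusted p = 0.917). Cd1d1, which lies on chromosome 3 and presents lipids to NKT cells, changed by -0.55 (adjusted p = 0.0563 from limma) and fell after quantile normalization by 0.69 (adjusted p = 0.045). With the slide as a block Cd1d1 passed under the 75th percentile too (adjusted p = 0.0135). The probe sequences are not held here, so signal shared between near-identical class I genes could not be separated.

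**Figure D3:**
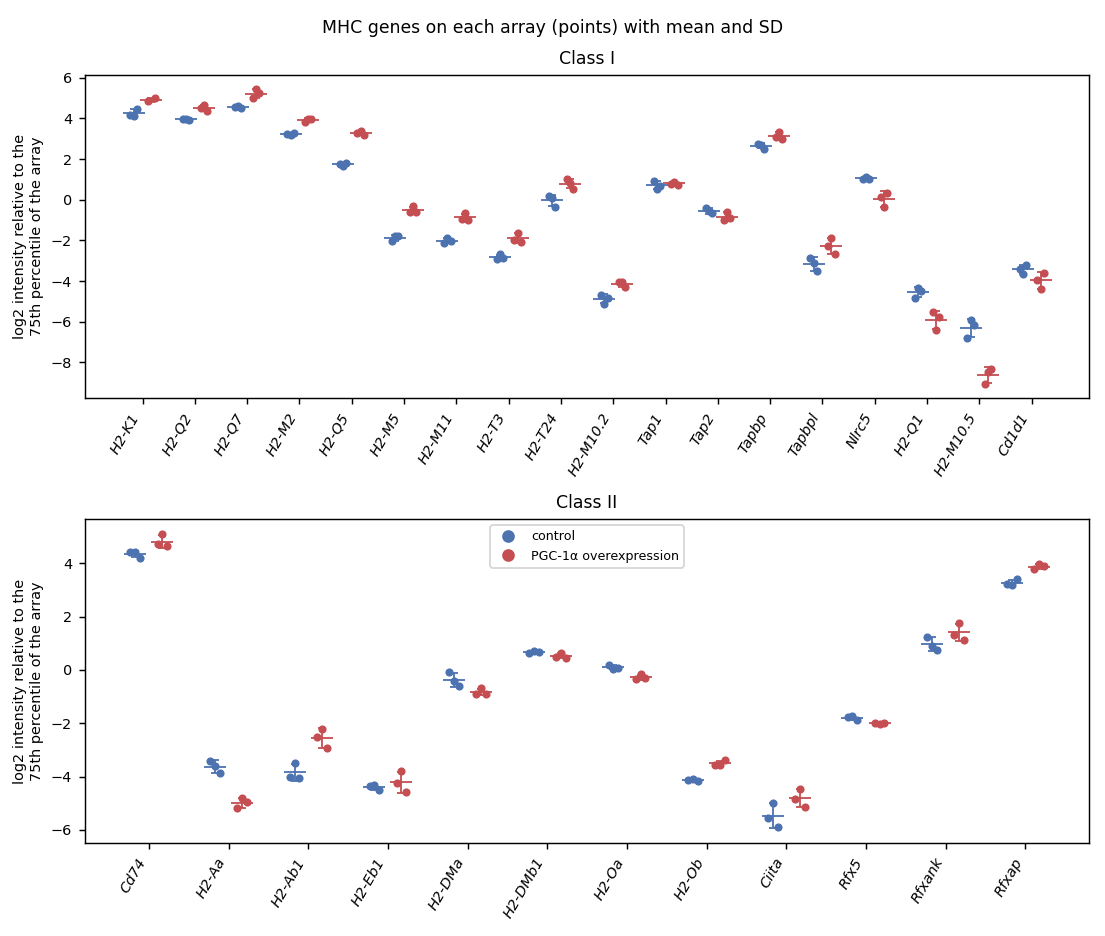
Log2 intensity relative to the 75th percentile of the array, 1 point per array (control blue, PGC-1α overexpression red) with mean and SD, for 18 class I genes and the 12 class II genes tested. H2-Q5, H2-M5 and H2-M11 show separate groups with the overexpression arrays above, Nlrc5, H2-Q1, H2-M10.5 and H2-Aa with them below, and Tap1, Tap2 and H2-Eb1 overlap.

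The peptide transporter showed no change that passed. Tap1 was 0.92, 0.52 and 0.68 in control cells and 0.79, 0.88 and 0.74 with overexpression, with a log2 fold change of 0.10 ± 0.14 (standard error, limma adjusted p = 0.572), and its second probe changed by -0.03. Tap2 changed by -0.29 (adjusted p = 0.136) at the probe that stands for the gene. Its other probe was -3.90, -4.11 and -4.25 against -3.37, -2.50 and -3.33 and rose by 1.02 (adjusted p = 0.00883 when every probe was tested on its own), so the probes of Tap2 disagreed. Erap1, the aminopeptidase that trims peptides to length, changed by -0.18 (adjusted p = 0.344).

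Among the loading chaperones, only Tapbpl (TAPBPR), a tapasin relative that edits peptides, rose under both scalings among the genes tested. It was -2.84, -3.12 and -3.52 in control cells and -2.27, -1.89 and -2.69 with overexpression. These values did not overlap (log2 fold change 0.88 ± 0.24, standard error, limma adjusted p = 0.0151), and 0.81 remained after quantile normalization (adjusted p = 0.0355). Tapasin itself, Tapbp, was 2.74, 2.70 and 2.51 against 3.09, 3.33 and 2.98, a rise of 0.48 (adjusted p = 0.0201) that became 0.11 (adjusted p = 0.563) after quantile normalization. Its call was also lost without control replicate 3 (0.41, adjusted p = 0.0678) and without overexpression replicate 1 (0.50, adjusted p = 0.0528). Calr, with its marked spots kept, was 3.58, 3.24 and 3.51 against 4.21, 4.52 and 4.61, and its rise of 1.00 (adjusted p = 0.00173) stayed past the threshold with quantile normalization, at 0.44 (adjusted p = 0.0403).

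The immunoproteasome, the interferon-induced form of the proteasome that supplies class I peptides, was covered by 5 listed genes, of which 4 were tested. Of these, 3 rose, against 36.9% of all genes. They were the catalytic subunits Psmb8 (0.44), Psmb9 (0.47) and Psmb10 (0.68, adjusted p = 0.004 from limma). After quantile normalization only Psmb10 passed, at 0.43 (adjusted p = 0.021). The activator subunit Psme1 changed by 0.32 (adjusted p = 0.0816).

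Of the class I-like genes outside the MHC, 7 of 15 listed were tested, 2 rose and 2 fell, against 36.9% and 19.6% of all genes. H60c (0.70, adjusted p = 0.014 from limma) rose, while Raet1e (-0.67) and Ulbp1 (-0.63) fell, all 3 being ligands of the NK cell receptor NKG2D and all 3 past the threshold under both scalings. Fcgrt, the neonatal Fc receptor, rose by 0.45 (adjusted p = 0.019) and did not pass after quantile normalization (0.38, adjusted p = 0.0564).

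In class II, the alpha and beta chains of the I-A molecule moved in opposite directions at the probes that stand for the genes. H2-Aa was -3.40, -3.61 and -3.87 in control cells and -5.18, -4.81 and -4.97 with overexpression, every spot well above background. It fell 2.57-fold (log2 fold change -1.36 ± 0.16, standard error, limma adjusted p = 0.000574), and it passed in all 21 alternatives, with values from -1.53 to -0.42. H2-Ab1 was -4.02, -3.48 and -4.04 against -2.50, -2.22 and -2.94 at the probe that stands for the gene, a 2.45-fold rise (log2 fold change 1.29, standard error 0.22, adjusted p = 0.00251).

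The rise of H2-Ab1 rested on that probe. A second H2-Ab1 probe was -6.30, -6.01 and -5.74 in control cells and -6.75, -6.38 and -6.54 with overexpression, where none was well above background, so the signal was at least 1.22-fold lower there. It entered the test through the control arrays alone, so its adjusted p of 0.0332, with every probe tested on its own, lends no support. The other 2 probes were not well above background on any array. With the mean of the probes in place of the brightest one, H2-Ab1 changed by 0.38 (adjusted p = 0.083). All 4 probes carry the same RefSeq transcript, and where each lies in it is not known here.

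H2-Eb1, the beta chain of the I-E molecule, was -4.35, -4.31 and -4.50 in control cells and -4.26, -3.80 and -4.58 with overexpression. The groups overlapped (log2 fold change 0.18 ± 0.20, standard error, limma adjusted p = 0.457). H2-Ob, H2-Ab1, H2-Aa and H2-Eb1 follow each other in this order on chromosome 17, so H2-Aa, which fell, lay between H2-Ab1, whose probes disagreed, and H2-Eb1, which did not pass. The invariant chain Cd74 was 4.41, 4.41 and 4.21 against 4.71, 5.10 and 4.63 and behaved as the bright class I genes did. It rose by 0.47 (adjusted p = 0.0326 from limma) under the 75th percentile and changed by -0.10 (adjusted p = 0.628) after quantile normalization. Leaving out any single array other than overexpression replicate 3 also ended the call, with values from 0.33 to 0.53 and adjusted p from 0.0589 to 0.0989.

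The peptide editors of class II also split. H2-DM releases the invariant chain peptide, and H2-DO, made of H2-Oa and H2-Ob, inhibits it. H2-DMa was -0.10, -0.42 and -0.61 in control cells and -0.89, -0.68 and -0.89 with overexpression, a fall of 0.44 on the log2 scale (adjusted p = 0.044 from limma) that did not pass after quantile normalization (-0.42, adjusted p = 0.0966). The call was also lost without control replicate 1 or 2 and without overexpression replicate 1 or 3, with values from -0.46 to -0.30 and adjusted p from 0.0876 to 0.142. With the mean of its probes H2-DMa changed by -2.05. A second H2-DMa probe, assigned to a predicted transcript, was -4.65, -4.35 and -5.39 against -8.79, -8.28 and -8.29. It was not well above background on any overexpression array and was at least 2.84-fold lower there. This probe entered the test through the control arrays alone, and it is the one that moves the mean of the probes. No p-value is therefore given for it or for that mean.

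H2-DMb1, the partner chain, was 0.63, 0.70 and 0.67 against 0.50, 0.64 and 0.45, and its difference of -0.14 did not pass (adjusted p = 0.346 from limma). H2-Oa was 0.20, 0.04 and 0.09 in control cells and -0.33, -0.17 and -0.32 with overexpression. It fell by 0.38 on the log2 scale (adjusted p = 0.0278) and passed in 11 of 21 alternatives. Leaving out any single array other than overexpression replicate 2 ended the call, with values from -0.41 to -0.33 and adjusted p from 0.0587 to 0.0962. H2-Ob, its partner, was -4.14, -4.10 and -4.15 against -3.55, -3.57 and -3.38 and rose by 0.63 ± 0.12 (standard error, limma adjusted p = 0.00339). Its second probe rose by 0.61, quantile normalization gave 0.49 (adjusted p = 0.0144), and H2-Ob passed in all 21 alternatives. The 2 chains of H2-DO thus moved in opposite directions under the 75th percentile.

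**Figure D4:**
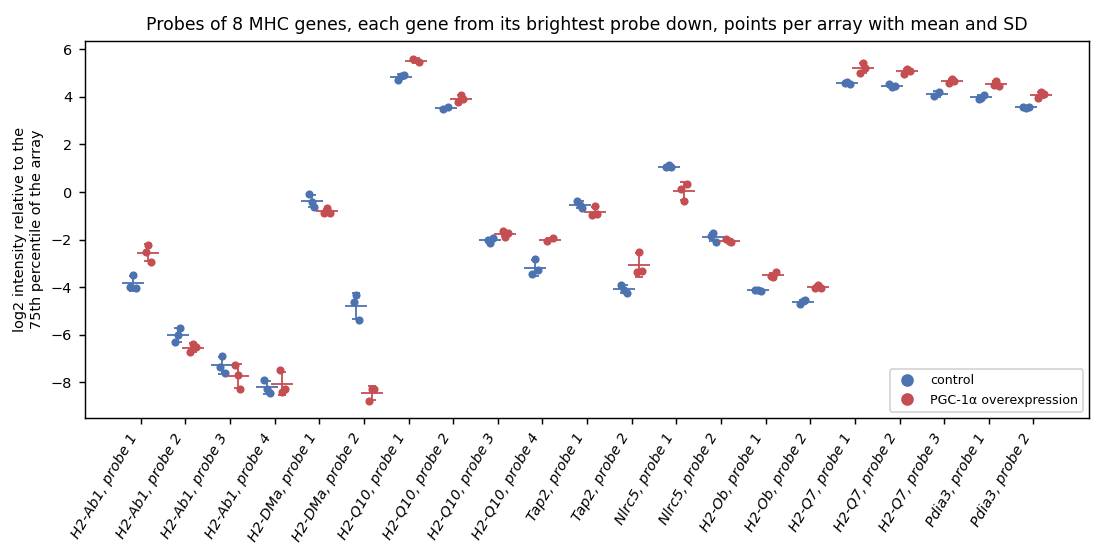
Log2 intensity relative to the 75th percentile for every probe of 8 genes with several probes, ordered from the brightest down within a gene, 1 point per array with mean and SD. The probes of H2-Ob, H2-Q7 and Pdia3 move the same way, while those of H2-Ab1 and Tap2 do not. In Nlrc5 the first probe falls by 1.03 on the log2 scale and the second changes by -0.17.

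Probes of a gene differed in other members as well. Of 15 genes with several tested probes, 33 probes in all, every probe passed in one direction in 5, some passed in 7, none passed in 2, and in 1, H2-Ab1, probes passed in both directions, the lower one with the limit given above. When every probe was tested on its own, 29 of 59 member probes rose and 8 fell, against 31.4% and 21.3% of all probes tested. Among those that fell, the H2-Q1 and H2-M10.5 probes and the second H2-Ab1 and H2-DMa probes entered through the control arrays alone. Their falls lend no support, and H2-DMa is among the 5 genes only with that probe counted. The 4 probes of H2-Q10, a gene known for its secreted product in liver, ranged in log2 fold change from 0.28 to 1.18.

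Endosomal proteases that cut antigens and the invariant chain were listed with 2 ubiquitin ligases and Ifi30, a thiol reductase, which was not tested. Of 8 genes listed, 7 were tested, 5 rose and 1 fell, against 36.9% and 19.6% of all genes. The 5 that rose all belonged to the brightest 10%, where 71.2% of all genes rose. Ctss, the main protease of the invariant chain, rose by 0.46 (adjusted p = 0.015 from limma), as did Ctsb (0.46), Ctsd (0.47) and Lgmn (0.36), and none of them passed after quantile normalization. Ctsl changed by 0.27 and did not pass (adjusted p = 0.187). Of the 2 ubiquitin ligases that remove class II from the surface, Marchf1 rose by 0.78 (0.16 and not past the threshold after quantile normalization) and Marchf8 fell by 0.66 (adjusted p = 0.014) and by 0.64 after quantile normalization (adjusted p = 0.013).

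The transactivators of the pathways come next. Nlrc5 switches on class I genes and Ciita class II genes, and both act through a promoter-bound complex of the RFX subunits, NF-Y and CREB. Nlrc5 was 1.03, 1.13 and 1.04 in control cells and 0.14, -0.37 and 0.35 with overexpression. All 3 overexpression values were below the control values, 2.04-fold (log2 fold change -1.03 ± 0.19, standard error, limma adjusted p = 0.00313) and 2.11-fold after quantile normalization. The fall passed in all 21 alternatives and was -1.20 on slide 1 and -0.69 on slide 2, although the second Nlrc5 probe changed by -0.17 and did not pass (adjusted p = 0.33). H2-K1, B2m and Tap1, textbook targets of Nlrc5, have their values above.

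Ciita was -5.54, -4.98 and -5.90 in control cells and -4.85, -4.46 and -5.12 with overexpression. The groups overlapped, and the difference of 0.66 did not pass (standard error 0.26, adjusted p = 0.0558 from limma), with 6 of 21 alternatives past the threshold. With the slide as a block, which leaves the difference at 0.66, it passed (adjusted p = 0.0103), and it was 0.60 on slide 1 and 0.77 on slide 2. Normexp also ended on the other side of the threshold (0.53, adjusted p = 0.0101), as did leaving out control replicate 2 (0.91, adjusted p = 0.0175) or overexpression replicate 3 (0.81, adjusted p = 0.0286). Among the RFX subunits, Rfx5 changed by -0.20 (adjusted p = 0.167) and Rfxank by 0.44 (adjusted p = 0.0908, and 0.0368 with the slide as a block). Rfxap was 3.22, 3.19 and 3.40 against 3.77, 3.98 and 3.88, a rise of 0.61 (adjusted p = 0.00526) that did not pass after quantile normalization (0.12, adjusted p = 0.416).

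The partners of these factors and the interferon route to them were listed as 18 genes, of which 17 were tested, 3 rose and 8 fell, against 36.9% and 19.6% of all genes. After quantile normalization 3 rose and 7 fell, against 21.7% and 20.9%. The NF-Y subunits Nfya (-0.87) and Nfyc (-0.74) fell and Creb1 rose (0.79). The 2 chains of the interferon gamma receptor, Ifngr1 (-0.56) and Ifngr2 (-0.95, adjusted p = 0.000703 from limma), fell, as did the interferon regulatory factors Irf2 (-0.54), Irf8 (-0.85) and Irf9 (-0.83). Each of these passed under both scalings. Stat2 (0.51) and Ifnb1 (0.89), the gene of interferon beta, rose.

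The promoters are shown because that complex reads them. The Y box, CCAAT, is the letter motif bound by NF-Y, and TGACG is the core of the site for CREB. Both were searched on both strands in the 250 bases before each transcription start of RefSeq on GRCm38.p6, with GAAANNGAAA for the interferon-stimulated element and GGGANTNCCC for the kappa B element. Of the class I genes, 30 had a promoter in the table and 26 of these held CCAAT in at least 1 of their promoters, as did 10 of 10 class II genes, against 33.8% of 32851 promoters of all genes. TGACG was present in 15 class I genes and 1 class II gene (17.8% of all promoters), GAAANNGAAA in 3 and 0 (2.98%) and GGGANTNCCC in 5 and 1 (0.944%). The last 200 bases before the start are given here for 5 genes, 5′ to 3′ on the strand of the gene, with matches on either strand in capitals, and adjoining capitals mark overlapping or reverse-strand matches.

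B2m, chr2:122147487-122147686, + strand: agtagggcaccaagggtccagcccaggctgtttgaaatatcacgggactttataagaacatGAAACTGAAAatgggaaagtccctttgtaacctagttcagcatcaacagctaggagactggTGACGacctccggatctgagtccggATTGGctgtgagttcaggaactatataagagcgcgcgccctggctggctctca

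H2-K1, chr17:34000334-34000533, - strand: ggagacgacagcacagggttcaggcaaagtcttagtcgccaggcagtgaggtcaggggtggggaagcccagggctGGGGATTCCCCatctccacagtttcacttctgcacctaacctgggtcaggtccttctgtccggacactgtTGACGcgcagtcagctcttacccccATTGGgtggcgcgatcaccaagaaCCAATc

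H2-Aa, chr17:34287824-34288023, - strand: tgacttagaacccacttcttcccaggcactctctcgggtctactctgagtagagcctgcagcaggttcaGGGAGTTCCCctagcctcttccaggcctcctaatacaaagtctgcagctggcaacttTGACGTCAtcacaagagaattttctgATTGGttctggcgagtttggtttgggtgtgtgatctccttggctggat

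H2-Eb1, chr17:34305667-34305866, + strand: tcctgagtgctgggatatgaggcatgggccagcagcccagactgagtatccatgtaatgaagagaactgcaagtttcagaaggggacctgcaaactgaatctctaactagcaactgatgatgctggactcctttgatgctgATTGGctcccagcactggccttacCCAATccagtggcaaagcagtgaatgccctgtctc

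H2-M5, chr17:36989534-36989733, - strand: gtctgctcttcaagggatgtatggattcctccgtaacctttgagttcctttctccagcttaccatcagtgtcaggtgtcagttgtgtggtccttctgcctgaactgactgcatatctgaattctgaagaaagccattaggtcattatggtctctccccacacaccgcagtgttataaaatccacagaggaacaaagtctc

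B2m and H2-K1 held TGACG upstream of a Y box read on the reverse strand (ATTGG), B2m held an interferon-stimulated element and H2-K1 a kappa B element. H2-Aa, which fell, held the same pair of a CREB core and a Y box with a kappa B element, while H2-Eb1, which did not pass, held 2 Y boxes and none of the other letters. H2-M5, which rose under both scalings, held none of the 4 motifs in this window. Neither did H2-T3, H2-Q10 or Erap1, of which Erap1 did not pass under either scaling. Whether these letters are bound in BV2 cells was not measured here.

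Markers of the labelled cell type were present. All 8 microglia and macrophage genes listed, among them Itgam, Csf1r, Tyrobp and Aif1, were well above background on all 6 arrays, and their summed level, relative to the 75th percentile, was 81.4 to 85.4 in control cells and 117 to 138 with overexpression. Of these 8, 4 rose and 0 fell under the 75th percentile, against 36.9% and 19.6% of all genes. After quantile normalization 0 rose and 1, Adgre1 (-0.45, adjusted p = 0.0237), fell, against 21.7% and 20.9% of all genes. The 4 that rose all belonged to the brightest 10% of genes, where 71.2% rose. Of 5 dendritic cell genes, 3 were well above background on all arrays, and the summed level was 0.716 to 0.869 against 0.701 to 0.75. Within that list the receptor gene Flt3 fell by 1.44 on the log2 scale and Cd209a rose by 0.95, both past the threshold under both scalings, while Clec9a was not well above background on any array.

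Markers of other cells that present antigen or respond to it gave similar mixtures. For B cells, 3 of 5 genes were well above background on all arrays, with a summed level of 0.724 to 0.851 against 0.736 to 1.02. Of these, Cd79b fell (log2 fold change -1.285) and Pax5 rose (0.964), both past the threshold under both scalings. Cd79a rose (0.469) but did not pass after quantile normalization. The defining gene Ms4a1 (CD20) was not well above background on any array. For T cells, 3 of 5 genes were well above background on all arrays, and Cd3g was never above it. The summed level was 0.581 to 0.718 against 0.906 to 1.23. Cd4 rose (log2 fold change 0.79) under both scalings. Cd3e rose (0.789) but did not pass after quantile normalization, and Cd3d (0.069) did not pass. Cd8a fell (-1.73) under both scalings, but was well above background on only 1 overexpression array. Cd8a entered the test through the control arrays alone, so its fall lends no support. Astrocyte, neuron and fibroblast genes gave summed levels of 0.243 to 0.284 against 0.412 to 0.529, 24.2 to 29.7 against 36.5 to 49.8 and 15.4 to 16.5 against 26.5 to 32. In the neuron list Snap25 was by far the brightest gene and changed by 0.71 (0.11 after quantile normalization), and Tubb3 fell by 0.63. Rbfox3 rose by 1.14, with control values of -6.19, -6.63 and -7.43, so its rise is limited by background. Whether its tested probe entered through the overexpression arrays alone is not shown here, so the rise lends no support of its own. In the fibroblast list Col1a1 was the brightest and changed by 0.77 (0.25 after quantile normalization), Col1a2 (1.12) and Dcn (0.97) rose and Pdgfra fell by 1.63. The part of these markers in the MHC results was not tested.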

How the data were processed

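RNA of 6 samples was hybridized to 1-colour Agilent arrays. The authors' scanner software gave background-subtracted intensity values per spot, deposited as scanned, with the arrays not brought to one scale. A table of log2 values normalized in GeneSpring was deposited too, by a procedure not given in the sources used here, which served as an alternative. The labels name the dye Cy3 and the labelling protocol Cy5, and the files hold the green channel. Groups and replicate numbers came from the labels.

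From the intensity values, log2 was taken minus the array's 75th percentile. Spots marked by the scanner software as outliers were dropped, and repeated spots averaged. Probes were named through their accessions in RefSeq (33767 of 56605 matched). A probe was tested with at least 2 values a group and if well above background on all 3 arrays of 1 group, and the brightest stood for its gene. Differences were fitted by limma (version 3.58.1, R 4.3.3; lmFit, eBayes) as two-sided tests, adjusted by Benjamini-Hochberg across the 17062 genes, and the fit was tested on simulated data. With 3 arrays against 3 the smallest exact permutation p is 0.1. Values on every array are given for core members and for others past 0.05 and at least 0.5 from the median of all genes. H2-Ob, Rfxap, Calr and the genes named from other lists were picked after their values were seen. Members, lists and alternatives were chosen with earlier results of these data known. Plots used Python 3.11.15 and matplotlib 3.10.9. The value of 1 listed gene is not reported here. The number of arrays limits the precision.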

Additional observations from a re-analysis of the deposited data

How the results depend on the processing

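The number of class I genes that rose, 18, was 7 after quantile normalization, 6 after normexp background correction with quantile normalization, 7 with the authors' log2 values and 8 with quantile normalization and marked spots kept. Over all genes, 6290 of 17062 rose, against 3702 after quantile normalization and 2911 after normexp with it. It was 3960 of 17076 with the authors' values and 3943 of 17305 with quantile normalization and marked spots kept. Class I genes that fell, 3, numbered 1 after normexp with the 75th percentile. The class I median relative to all genes, 0.32, was 0.0197 after quantile normalization and changed sign, at -0.003, -0.0059 and -0.0041, under the other 3 of these settings. Class II genes that rose, 4, numbered 2 under each of these 4 settings. Class II genes that fell, 3, numbered 1 after quantile normalization, after normexp with it and without a filter on dim probes, and 5 when every probe was a gene of its own. Those 5 include the second H2-Ab1 and H2-DMa probes, which entered through the control arrays alone. The class II median relative to all genes, 0.08, was -0.0803 after quantile normalization, -0.066 after normexp with it, -0.10 with the authors' values, -0.0891 with marked spots kept and quantile normalization, -0.0367 without the filter and -0.0064 with every probe.

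Leaving out 1 array at a time gave 15 to 18 class I genes that rose and 3 to 4 that fell. The class I median relative to all genes was then 0.29 to 0.36. In class II, 3 to 6 genes rose and 1 to 3 fell. The class II median relative to all genes ran from -0.0827 (without overexpression replicate 2) to 0.21 (without overexpression replicate 3). Class II genes that fell numbered 1 without control replicate 1 or 2 and without overexpression replicate 1 or 3. Over all genes, leaving out 1 array gave 4740 to 6461 that rose and 2677 to 3207 that fell.

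With the replicate number as a block, 18 class I genes rose and 4 fell, and 5 class II genes rose and 3 fell. Same-numbered arrays correlated in their deviations with r of -0.16, 0.07 and 0.60, so the numbers were not taken as pairs. With the replicate block Ciita (adjusted p = 0.003) and Cd1d1 (adjusted p = 0.00808) passed. The slide as a block gave 19 and 4 in class I and 6 and 3 in class II. Over all 17062 genes, 7227 rose and 3694 fell with the slide as a block, and 6989 and 3572 with the replicate block. Without a block these were 6290 and 3343, so the calls grew across the array and not in MHC genes alone.

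Of single genes, Cd74 changed sign to -0.10, -0.0783, -0.15 and -0.14 after quantile normalization, after normexp with it, with the authors' values and with marked spots kept and quantile normalization. H2-M3, near 0, was 0.0081 after quantile normalization, 0.0112 with the authors' values, 0.0142 with marked spots kept and quantile normalization and 0.10 on slide 1, and ran from -0.18 (without control replicate 2) to 0.13 (without control replicate 3) when 1 array was left out. Tap1 was -0.0135 with median scaling, Tap2 0.37 with the mean of its probes, H2-Eb1 -0.0269 without overexpression replicate 2 and H2-M10.5 0.0812 after normexp with the 75th percentile. Among the other members, H2-K2, H2-Q2, H2-Q4, H2-Q8, H2-Q10, H2-T22 and Pdia3 went from above 0 to below it in at least 1 alternative, with lowest values of -0.0824, -0.0342, -0.31, -0.12, -0.0254, -0.0331 and -0.0249, as did H2-Ke6 (-0.14), and Erap1 reached 0.10 with normexp and the 75th percentile. H2-K1, H2-Aa, H2-Ab1, H2-DMa (-2.05 with the mean of its probes), H2-DMb1, H2-Oa, H2-M5, H2-M11, H2-M10.2, H2-Q1, H2-Q5, H2-T3, H2-T24, Nlrc5, Ciita, Tapbp and Tapbpl kept their direction under every alternative that gave them a value. The causes were not tested. Dim probes are limited by background and the class I calls by possible signal shared between similar genes.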
